A study of Mus musculus with 6 samples.

Results

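The genes described here encode guidance cues and their receptors: semaphorins, the plexins and neuropilins that bind them, ephrins, and the Eph receptor tyrosine kinases that bind ephrins. Members were the entries of the count table whose symbol is that of a class 3 to 7 semaphorin, a plexin, a neuropilin, an ephrin or an Eph receptor. This rule took 52 of the 17128 genes, made up of 20 semaphorins, 9 plexins, 2 neuropilins, 8 ephrins and 13 Eph receptors. About 20000 stromal cells per library were sorted for RNA sequencing. They came from 21-day-old mice, from femurs freed of their growth plates and digested with collagenase. CXCL12-deficient libraries (n = 3) were GFP+ tdTomato+ cells of mice that carry Col2a1-cre together with Cxcl12(GFP/fl) and R26R(tdTomato/+). Control libraries (n = 3) were GFP+ cells of mice with Cxcl12(GFP/fl) and R26R(tdTomato/+) but without the cre. Both groups therefore carry GFP on the other Cxcl12 allele and the tdTomato reporter locus. Col2a1-cre acts in Col2a1-expressing cells, and their descendants inherit the recombined alleles. Only the CXCL12-deficient cells were sorted for tdTomato, so the loss of the floxed allele, the cre transgene and the sorting gate cannot be told apart. The labels give no sex, litter or batch and do not say that each library is a separate animal, so the p-values cover the spread among these 6 libraries alone, which may be technical. Replicate numbers used here follow the order of the deposited samples within each group and link no library of one group to the other group.

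Semaphorins are signals that mostly repel or retract the cells that sense them. Class 3 semaphorins are secreted, and most act through a neuropilin, which binds the ligand, and a plexin, which carries the signal inside the cell. Most class 4 to 7 semaphorins sit in the membrane and bind plexins directly. Ephrins are membrane-bound ligands that signal at cell contacts, with the ephrin-A group held by a lipid anchor and the ephrin-B group spanning the membrane, and they can signal back into the cell that carries them. In bone, class 3 and class 4 semaphorins and ephrin-B ligands are known as signals between osteoclasts, osteoblasts and vessels, and several class 4 semaphorins are also made by leukocytes.

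Only 2 of the 44 members that could be tested differed between the groups, both of them membrane semaphorins of class 4 that were lower in CXCL12-deficient libraries. Sema4a fell 5.43-fold and Sema4d fell 2.62-fold, and 0 members rose by edgeR, DESeq2 or limma-voom, with 2 higher at an unadjusted p below 0.05. The call of Sema4a held with limma-voom and in each of the 6 refits without a library. That of Sema4d was lost in all of these. The share called, 4.55% of tested members, stood beside 4.57% of all 13926 tested genes (edgeR quasi-likelihood F-test, adjusted p below 0.05), so it did not exceed the background. For the lower direction alone the background was 3.94%, and for the higher direction it was 0.639%. By the mean per exon length over all 6 libraries the most abundant members were Nrp1, Efnb1, Efna1, Efna5, Ephb4 and Efna2, and these were not called. In control libraries alone Sema4a, which fell, stood above Ephb4 and Efna2.

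Promoter sequence is shown for Sema4a and Sema4d, the members that fell, and for Efnb1, the most abundant ephrin, which was not called. Each is the 250 bases before a RefSeq transcription start on GRCm38.p6, read 5′ to 3′ in the direction of the gene. It is the most upstream listed start whose window overlaps no annotated exon. For Sema4a and Efnb1 this was the first listed start. For Sema4d it was the last of 3, and its window lies inside the gene (51685529 to 51793747). Capitals mark GAGGAA (or TTCCTC on the other strand), the core of sites of the myeloid factor PU.1, and GGGCGG (or CCGCCC), the GC box bound by Sp1-type factors.
Sema4a, chr3:88461183-88461432, minus strand: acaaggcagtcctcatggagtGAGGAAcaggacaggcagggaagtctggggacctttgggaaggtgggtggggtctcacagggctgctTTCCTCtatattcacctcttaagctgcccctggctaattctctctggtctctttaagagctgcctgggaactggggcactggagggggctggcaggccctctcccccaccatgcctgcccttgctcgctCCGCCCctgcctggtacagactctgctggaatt
Sema4d, chr13:51739447-51739696, minus strand: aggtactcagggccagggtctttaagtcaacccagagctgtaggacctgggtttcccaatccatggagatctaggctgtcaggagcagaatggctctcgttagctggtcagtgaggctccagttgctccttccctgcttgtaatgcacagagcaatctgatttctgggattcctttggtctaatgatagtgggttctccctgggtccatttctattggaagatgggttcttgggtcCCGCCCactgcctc
Efnb1, chrX:99135811-99136060, plus strand: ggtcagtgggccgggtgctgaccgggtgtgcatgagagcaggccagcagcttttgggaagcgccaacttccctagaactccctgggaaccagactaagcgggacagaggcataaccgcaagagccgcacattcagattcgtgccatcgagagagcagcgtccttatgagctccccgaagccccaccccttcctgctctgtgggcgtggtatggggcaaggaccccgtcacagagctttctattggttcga
The Sema4a window held the PU.1 core at 2 places, 229 and 162 bases before the start, and the GC box at 1, the Sema4d window the GC box at 1 place only, and the Efnb1 window neither. TGTGGT (or ACCACA), the core of RUNX sites, was in none of the 3 windows. Of the 32851 windows of this length in the RefSeq table, 23.3% held the PU.1 core, 32.7% the GC box and 14.0% the RUNX core. A match describes the letters and is not a binding site, and the counts per gene do not show which start these cells used.

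Before the members, the libraries were checked against their labels. Cxcl12, entered as 4 exons and summed here, had 1289 ± 130 CPM (read counts scaled to library size with TMM factors) in CXCL12-deficient libraries and 3747 ± 112 CPM in control libraries (SD, n = 3 each). The exons were not compared separately, so the source of the reads that remain in CXCL12-deficient libraries was not tested. Total counts per library lay between 20133299 and 28009257, so that 1 read was worth 0.0357 to 0.0472 CPM. Markers of CXCL12-abundant reticular cells were present in every library, with Lepr at 810 to 1260 CPM in CXCL12-deficient and 630 to 688 CPM in control libraries. Markers of other cells were lower in CXCL12-deficient libraries: the summed level of 13 neutrophil genes was 2882 to 7091 CPM against 15263 to 20908 CPM in controls (12 of 13 called lower), and that of 11 monocyte and macrophage genes was 404 to 815 CPM against 2167 to 3354 CPM in controls (6 of 11 lower). The sum of 14 endothelial genes was 136 to 168 CPM in CXCL12-deficient libraries against 223 to 299 CPM in controls (7 of 14 lower). For 10 B lineage genes it was 513 to 545 CPM against 629 to 1213 CPM in controls (3 of 10 lower). This sum includes Ebf1, which is also on the stromal list and was the 1 B lineage gene with a positive log2 fold change. In edgeR 9 of the 10 had an unadjusted p below 0.05, and DESeq2 called 7 lower and 0 higher. For 7 T and NK cell genes the sum was 7.33 to 29.0 CPM against 43.3 to 78.9 CPM in controls (1 of 7 lower). For 7 megakaryocyte genes it was 6.70 to 18.01 CPM against 83.8 to 276 CPM in controls (5 of 7 lower). Of 12 stromal genes 3 were higher and 1, the floxed Cxcl12 itself, was lower. The other 11 all had a positive log2 fold change, 8 of them at an unadjusted p below 0.05, and their summed level was 8502 to 11637 CPM in CXCL12-deficient and 5986 to 6975 CPM in control libraries, without overlap. The summed levels of chondrocyte, pericyte, erythroid and Schwann cell genes overlapped between the groups, and edgeR called 0 of them. At an unadjusted p below 0.05 were 2 pericyte and 1 Schwann cell genes, limma-voom called 0, and DESeq2 called 1 lower in each of these 2 lists. In bulk libraries such as these, fewer cells of a type and less RNA per cell cannot be told apart.

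**Figure D1:**
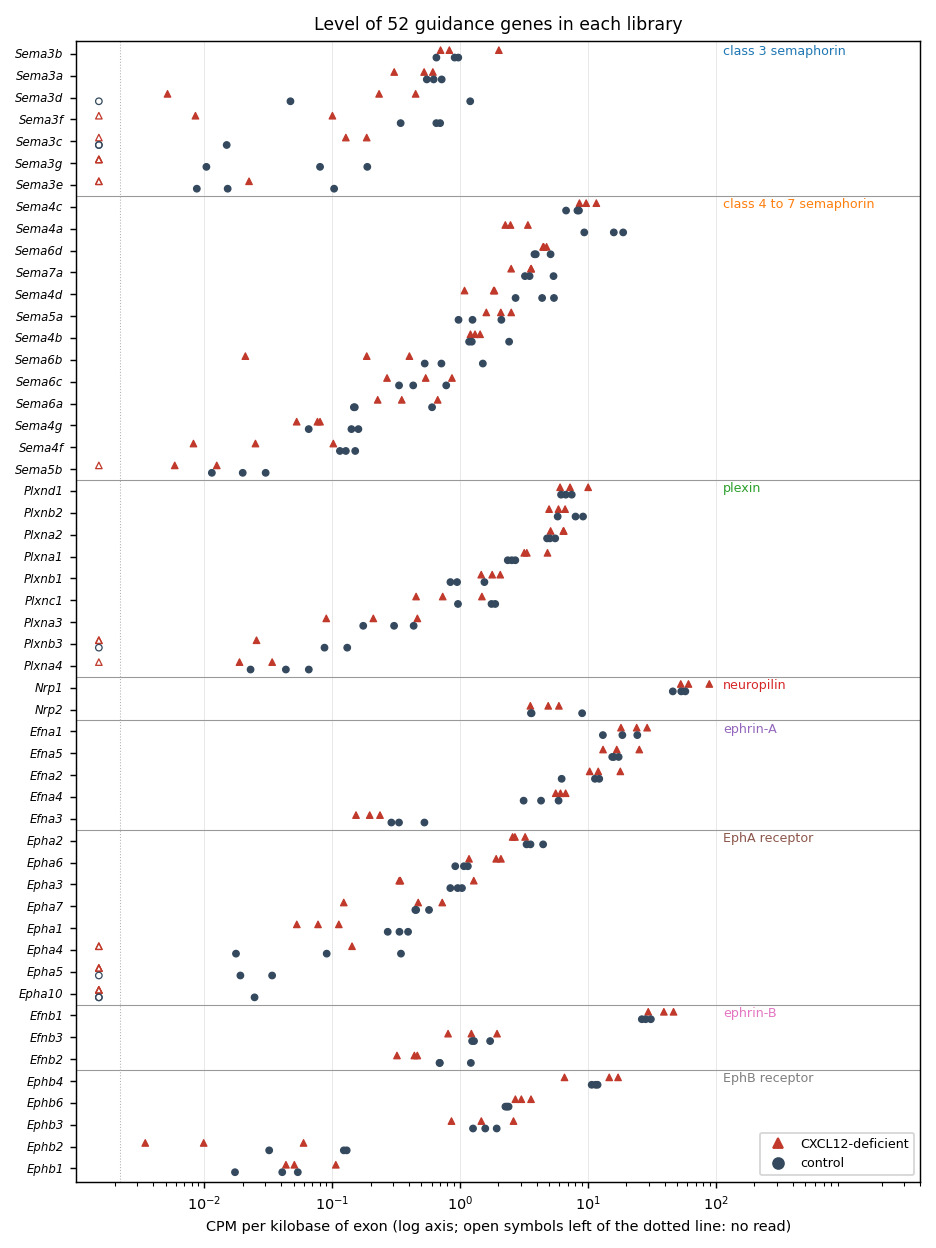
Level of each of the 52 members in each library, in CPM per kilobase of exon on a log axis, grouped by role (red triangles CXCL12-deficient, dark circles control, n = 3 each; open symbols, no read). Nrp1 has the highest level in every library, class 3 semaphorins lie low, and Sema4a is a member at which the groups are far apart.

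To compare genes, CPM were divided by the length of all annotated exons (GENCODE M21), and the resulting level per kilobase is used wherever members are set against each other. Nrp1, the neuropilin that binds class 3 semaphorins and VEGF-A, was the highest member at 68.0 CPM per kilobase in CXCL12-deficient and 52.7 CPM per kilobase in control libraries. Next came Efnb1, at 38.7 CPM per kilobase in CXCL12-deficient and 28.7 CPM per kilobase in control libraries. In all, 6 members averaged at least 10 CPM per kilobase over the 6 libraries, 27 at least 1, and 13 were below 0.1. Summed over the 7 class 3 semaphorins, most of them ligands of neuropilins, the level was 1.46 to 3.01 CPM per kilobase in CXCL12-deficient and 1.69 to 3.90 CPM per kilobase in control libraries. The 2 neuropilins together had 58.3 to 95.2 CPM per kilobase in CXCL12-deficient and 55.3 to 61.6 CPM per kilobase in control libraries. In each library the neuropilin sum was far above the class 3 ligand sum.

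The class 3 semaphorins were low and uneven, and none of the 4 tested was called by edgeR. Sema3b, the highest of them per kilobase, had 3.37, 9.64 and 3.95 CPM in CXCL12-deficient libraries, against 4.64, 3.13 and 4.35 CPM in controls. Sema3a, which acts through Nrp1 and protects bone in mice, had 4.25, 7.28 and 8.52 CPM in CXCL12-deficient libraries, against 9.995, 7.64 and 8.65 CPM in controls. The groups overlapped at both genes, and the 95% interval of the log2 fold change ran from -0.59 to 1.56 for Sema3b and from -1.15 to 0.37 for Sema3a. Sema3d rested on single libraries, with 3.87, 2.01 and 0.044 CPM in CXCL12-deficient libraries, against 10.4, 0.41 and 0 CPM in controls. Its values overlapped and differed more within each group than between the groups (log2 fold change -0.86 ± 1.63, SE).

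Sema3f, a ligand of Nrp2, was named after its values were seen because the tools disagreed about it. It had 0, 0.52 and 0.044 CPM in CXCL12-deficient libraries (0, 12 and 1 reads), against 3.64, 1.79 and 3.40 CPM in controls. Every control library was above every CXCL12-deficient one. The log2 fold change was -3.93 ± 1.14 (SE; adjusted p = 0.098, edgeR), so it was not called. DESeq2 did call it, at adjusted p = 0.0042, and limma-voom did not. Without CXCL12-deficient replicate 2, which held 12 of the 13 reads of that group, the edgeR estimate was -6.78 (adjusted p = 0.027), and it lay between -4.18 and -3.35 without any other library. The other 3 members of the class, Sema3c, Sema3e and Sema3g, did not pass the filter on low counts. Sema3c had 32, 21 and 0 reads in CXCL12-deficient libraries against 3, 0 and 0 in controls, Sema3e had 5, 0 and 0 reads in CXCL12-deficient libraries against 27, 2 and 3 in controls, and Sema3g had 0 reads in each CXCL12-deficient library against 24, 9 and 1 in controls. A library without a read allows a level of up to 0.125 to 0.133 CPM in the CXCL12-deficient group (3 counts, counting error only). The endothelial marker sums given above moved the same way as Sema3f and Sema3g, and their part in these values was not tested.

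Among the membrane semaphorins of classes 4 to 7, 2 of 12 tested members fell and 0 rose, by edgeR. Of all tested genes 3.94% were called lower and 0.639% higher. These 2 are the only called members, and the class was not tested as a set. Sema4a, which is known from dendritic and T cells and binds plexins of the B and D groups, had 13.5, 18.4 and 12.3 CPM in CXCL12-deficient libraries, against 50.8, 86.5 and 102 CPM in controls. All CXCL12-deficient libraries were far below the lowest control. Sema4a averaged 14.7 ± 3.26 CPM in CXCL12-deficient and 79.9 ± 26.4 CPM in control libraries (SD, n = 3 each). On the log2 scale the difference was -2.44 ± 0.29 (SE), with an adjusted p of 0.0055 in the edgeR fit. The gene (ENSMUSG00000028064.17) lies on the minus strand of chromosome 3, from 88435959 to 88461182 of GRCm38. It stayed called in each of the 6 refits that left out 1 library, with log2 fold changes from -2.70 to -2.24. It was the only member also below an adjusted p of 0.01.

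Sema4d, the leukocyte semaphorin CD100, binds Plxnb1 and, when made by mouse osteoclasts, restrains osteoblasts. It had 14.1, 14.3 and 8.35 CPM in CXCL12-deficient libraries, against 41.8, 20.9 and 33.8 CPM in controls. The groups did not overlap, and the lowest control stood nearer to the CXCL12-deficient libraries than to the highest control. Sema4d averaged 12.3 ± 3.39 CPM in CXCL12-deficient and 32.2 ± 10.5 CPM in control libraries (SD, n = 3 each). On the log2 scale the difference was -1.39 ± 0.31 (SE), with an adjusted p of 0.041 in the edgeR fit. The gene (ENSMUSG00000021451.16) lies on the minus strand of chromosome 13, from 51685529 to 51793747 of GRCm38. The call was lost in each of the 6 refits without a library, with adjusted p from 0.051 to 0.16 and log2 fold changes from -1.62 to -1.18, and with limma-voom (adjusted p = 0.051).

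The leukocyte marker lists given above were lower in the same libraries. The pan-leukocyte gene Ptprc, which encodes CD45, had 12.7, 16.9 and 10.2 CPM in CXCL12-deficient libraries, against 59.8, 75.4 and 107 CPM in controls. Sema4a and Ptprc differed between the groups by a similar amount, Ptprc by -2.60 ± 0.27 on the log2 scale (SE; edgeR adjusted p = 0.0039). As a measure chosen after these values were seen, the log2 ratio of Sema4a to Ptprc was 0.08, 0.12 and 0.27 in CXCL12-deficient libraries, against -0.24, 0.20 and -0.06 in controls. These ratios overlapped and differed by 0.19 (exact permutation p = 0.3, two-sided; adjusted over the 2 ratios, 0.3). The log2 ratio of Sema4d to Ptprc was 0.15, -0.24 and -0.28 in CXCL12-deficient libraries, against -0.52, -1.85 and -1.66 in controls. Here every CXCL12-deficient library was above every control, by 1.22 on average. The exact permutation p was 0.1 (two-sided), the smallest that 3 against 3 allows (adjusted 0.2). Neither ratio could therefore pass 0.05, and the part of leukocyte content in either gene was not tested.

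**Figure D2:**
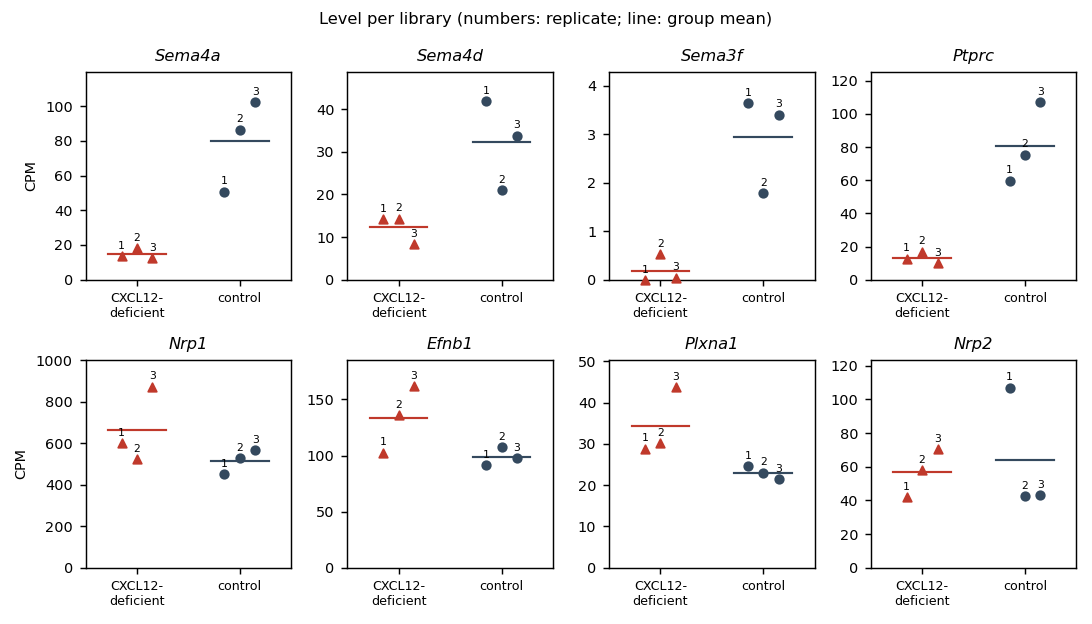
CPM in each library for Sema4a, Sema4d, Sema3f and the leukocyte gene Ptprc (top) and for Nrp1, Efnb1, Plxna1 and Nrp2 (bottom), with CXCL12-deficient libraries left of controls; digits give the replicate and lines the group mean. The groups are apart in the top row and at Plxna1, and control replicate 1 stands at 107 CPM for Nrp2 against 42.6 and 43.1 CPM in the other 2 controls.

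The remaining membrane semaphorins were not called. Sema4c, a ligand of Plxnb2, had the highest mean of the semaphorins per kilobase over all 6 libraries, although Sema4a was higher in controls (14.8 against 7.87 CPM per kilobase). Sema4c had 39.6, 53.6 and 44.7 CPM in CXCL12-deficient libraries, against 38.2, 31.1 and 39.2 CPM in controls. Each CXCL12-deficient library was above each control, at the closest by under 1 CPM (log2 fold change 0.35 ± 0.18, SE; adjusted p = 0.36, edgeR). Sema6d, a ligand of Plxna1, had 47.3, 47.8 and 50.3 CPM in CXCL12-deficient libraries, against 54.1, 41.4 and 40.4 CPM in controls. Its interval was among the narrowest, from -0.29 to 0.48 on the log2 scale. The other 8 tested members of these classes had log2 fold changes between -2.17 (Sema6b) and 0.52 (Sema5a). Sema6b had 0.083, 0.74 and 1.60 CPM in CXCL12-deficient libraries, against 2.11, 2.85 and 6 CPM in controls, without overlap (adjusted p = 0.23, edgeR). Sema5b, with at most 6 reads in a library, was not tested.

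Of the 28 tested plexins, neuropilins, ephrins and Eph receptors, 0 passed the threshold in edgeR, in DESeq2 or in limma-voom, and 4 had an unadjusted p below 0.05. Of these 28 estimates 14 were positive and 14 negative. Nrp1 (chromosome 8, 128358604 to 128503363 of GRCm38, plus strand) had 601, 523 and 874 CPM in CXCL12-deficient libraries, against 453, 527 and 567 CPM in controls. CXCL12-deficient replicate 3 was the highest, and replicate 2 lay within the controls (log2 fold change 0.37, 95% interval -0.11 to 0.85; adjusted p = 0.40, edgeR). Nrp2, the co-receptor of Sema3f and VEGF-C, had 42.2, 58.1 and 70.5 CPM in CXCL12-deficient libraries, against 107, 42.6 and 43.1 CPM in controls. The sign of its estimate rested on single libraries: the log2 fold change was -0.18 with all libraries, 0.39 when control replicate 1 was left out and 0.0016 when CXCL12-deficient replicate 1 was, and none of these was called.

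Plexins carry the semaphorin signal into the cell through a domain that acts on small GTPases of the Rap family. Plxnd1, a receptor of Sema3e that is best known from vessels, had the highest mean of the plexins per kilobase over all 6 libraries, although Plxnb2 was higher in controls (7.68 against 6.81 CPM per kilobase). Plxnd1 had 44.4, 53.1 and 73.6 CPM in CXCL12-deficient libraries, against 49.2, 45.2 and 54.8 CPM in controls. Plxnb2, a receptor of class 4 semaphorins, had 38.5, 45.6 and 51.4 CPM in CXCL12-deficient libraries, against 70.9, 44.9 and 62.0 CPM in controls. Plxna2, a receptor of Sema6 and class 3 ligands, had 88.0, 111 and 111 CPM in CXCL12-deficient libraries, against 95.6, 86.9 and 82.6 CPM in controls. The groups overlapped at all 3 genes, with adjusted p of 0.68, 0.35 and 0.49 in that order (edgeR). The interval of Plxna2, from -0.12 to 0.58 on the log2 scale, leaves out a change of 2-fold in either direction. Plxna1, named after its values were seen, had 28.9, 30.2 and 43.9 CPM in CXCL12-deficient libraries, against 24.6, 23.0 and 21.4 CPM in controls. Its groups did not overlap (log2 fold change 0.58 ± 0.21, SE; unadjusted p = 0.024, adjusted p = 0.18, edgeR). The other 4 tested plexins had log2 fold changes between -1.31 (Plxna4) and 0.67 (Plxnb1). Plxnb3, with 4, 0 and 0 reads in CXCL12-deficient libraries against 0, 21 and 12 in controls, was not tested.

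Of the 5 ephrin-A ligands 0 passed in edgeR, in DESeq2 or in limma-voom, and 0 had an unadjusted p below 0.05. Efna1, Efna5 and Efna2 were the highest of them per kilobase. Efna1 had 44.2, 53.3 and 33.3 CPM in CXCL12-deficient libraries, against 44.7, 34.1 and 24.0 CPM in controls. Efna5 had 68.0, 53.1 and 102 CPM in CXCL12-deficient libraries, against 70.4, 62.7 and 64.5 CPM in controls. Efna2 had 25.7, 22.1 and 38.3 CPM in CXCL12-deficient libraries, against 24.3, 26.2 and 13.3 CPM in controls. At these 3 genes the groups overlapped, and log2 fold changes were 0.35, 0.18 and 0.43, with standard errors of 0.26, 0.23 and 0.31. Efna4 gave 0.46 ± 0.31, and Efna3, with under 1.3 CPM in every library, gave -0.97 ± 0.73 (SE).

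Of the EphA receptors the highest per kilobase was Epha2, which binds ephrin-A1. Epha2 had 12.1, 12.6 and 15.1 CPM in CXCL12-deficient libraries, against 16.7, 15.5 and 20.9 CPM in controls, without overlap (log2 fold change -0.42 ± 0.23, SE; adjusted p = 0.38, edgeR). Epha6 had 11.1, 6.24 and 10.2 CPM in CXCL12-deficient libraries, against 6.10, 5.69 and 4.87 CPM in controls, again without overlap but in the other direction (0.72 ± 0.33, SE; adjusted p = 0.27, edgeR). Epha3, a receptor of ephrin-A5, was split within the CXCL12-deficient group, with 2.92, 11.2 and 2.98 CPM, against 8.35, 7.32 and 9.02 CPM in controls. Summed over the 8 EphA genes the level was 5.36 to 6.49 CPM per kilobase in CXCL12-deficient and 6.21 to 7.69 CPM per kilobase in control libraries, and summed over the 5 ephrin-A genes it was 58.5 to 68.4 CPM per kilobase in CXCL12-deficient and 40.0 to 59.7 CPM per kilobase in control libraries. Epha5 and Epha10 had no read in any CXCL12-deficient library and at most 14 and 5 in a control, and were not tested. Epha7 had 4.67, 1.22 and 7.19 CPM in CXCL12-deficient libraries, against 4.50, 4.43 and 5.67 CPM in controls, and the groups overlapped. Epha1 and Epha4, under 3 CPM in every library, gave -2.02 ± 0.74 and -1.65 ± 1.60 (SE).

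Among the ephrin-B ligands, Efnb1 was the main gene by level. It had 103, 136 and 162 CPM in CXCL12-deficient libraries, against 91.5, 108 and 97.9 CPM in controls. CXCL12-deficient replicate 1 lay within the controls and the other 2 above them (log2 fold change 0.43 ± 0.19, SE; unadjusted p = 0.045, adjusted p = 0.25, edgeR). Efnb2, known as the ephrin of arteries, had 2.21, 3.18 and 3.02 CPM in CXCL12-deficient libraries, against 8.35, 4.76 and 4.77 CPM in controls. Its groups did not overlap (-1.09 ± 0.41, SE; adjusted p = 0.19, edgeR), and the endothelial marker sum stood lower in the same libraries, whose part in this value was not tested. Efnb3 had 3.92, 2.57 and 6.22 CPM in CXCL12-deficient libraries, against 4.11, 5.49 and 3.97 CPM in controls, and the groups overlapped.

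Of the EphB receptors, Ephb4, the venous partner of ephrin-B2, was the highest per kilobase. It had 30.5, 68.3 and 80.1 CPM in CXCL12-deficient libraries, against 55.4, 53.5 and 49.8 CPM in controls. The CXCL12-deficient libraries lay on both sides of the controls, which were close together (log2 fold change 0.17, 95% interval -0.52 to 0.86). Ephb6, which lacks kinase activity, had 11.4, 10.2 and 13.6 CPM in CXCL12-deficient libraries, against 8.57, 8.82 and 9.07 CPM in controls, without overlap (0.41 ± 0.25, SE; adjusted p = 0.43, edgeR). Ephb3 had 5.71, 17.4 and 9.77 CPM in CXCL12-deficient libraries, against 12.9, 8.41 and 10.5 CPM in controls. Ephb2 was under 2 CPM in every library (-1.95 ± 1.09, SE), and Ephb1, with at most 18 reads, was not tested.

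**Figure D3:**
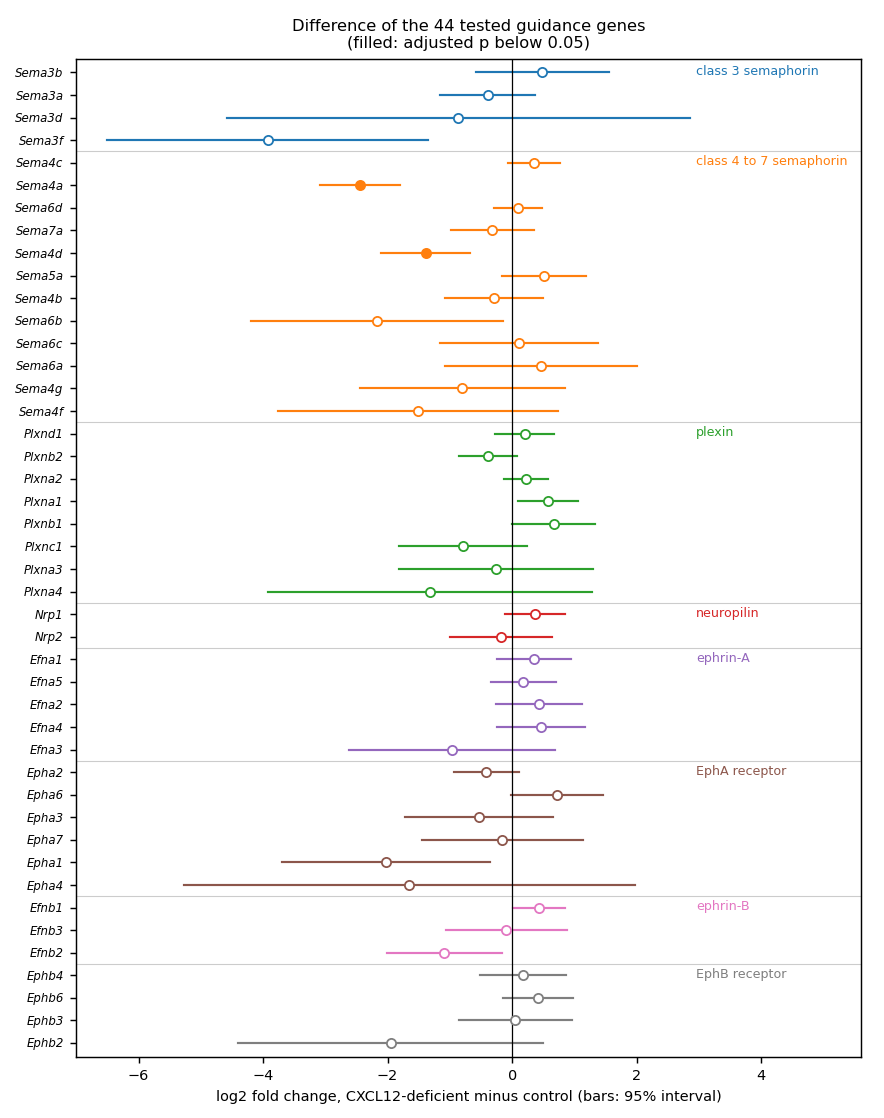
Log2 fold change (CXCL12-deficient minus control) of the 44 tested members with its 95% interval from the edgeR fit, grouped by role and ordered by level within a role; filled points have an adjusted p below 0.05. Only Sema4a, at -2.44, and Sema4d, at -1.39, are filled, and the intervals are widest at low-level members such as Sema3d, Sema3f and Epha4.

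Of the 44 tested members, 20 (45.5%) had a positive log2 fold change, beside 52.6% of all tested genes, and the median was -0.17, beside 0.03 for all tested genes. With a filter of 1 CPM in 3 libraries, which left 38 members, the median was 0.058. The members dropped by that filter (Efna3, Epha4, Ephb2, Plxna4, Sema4f and Sema4g) were low in counts, and all had negative estimates. An unadjusted p below 0.05 was found at 8 members (18.2%), 6 lower and 2 higher, beside 18.9% of all tested genes. The groups did not overlap at 13 members (29.5%), beside 25.6% of all tested genes. Lower in CXCL12-deficient libraries were 9 of the 44 (Efna3, Efnb2, Epha1, Epha2, Sema3f, Sema4a, Sema4d, Sema4f and Sema6b), beside 1933 of all 13926 tested genes (13.9%). Higher were 4 of the 44 (Epha6, Ephb6, Plxna1 and Sema4c), beside 1632 of all tested genes (11.7%). Several of the lower members, such as Sema3f, Sema4f and Epha1, passed the count filter only through the controls. Their place among the lower members is therefore not independent of that filter.

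The members also varied between libraries of the same group. Control replicate 1 was the highest control at 27 of the 44 tested members (61.4%), beside 37.5% of all tested genes, and CXCL12-deficient replicate 3 was the highest of its group at 24 (54.5%), beside 32.5%. Among the 33 members with at least 1 CPM in every library, the median distance from the lowest to the highest library was 0.73 on the log2 scale within the CXCL12-deficient group and 0.57 within the control group. Over all 11721 genes at that level it was 0.52 within the CXCL12-deficient group and 0.44 within the control group. Osteoblast markers also stood apart in control replicate 1: the summed level of 9 such genes was 14452, 19907 and 12958 CPM in CXCL12-deficient libraries, against 28757, 11583 and 8252 CPM in controls, and edgeR, DESeq2 and limma-voom each called 0 of them, with 0 at an unadjusted p below 0.05. Whether this marker level bears on Nrp2 or Sema3d, which were also highest in control replicate 1, was not tested. Without that library the median log2 fold change of the members was 0.12 instead of -0.17.

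**Figure D4:**
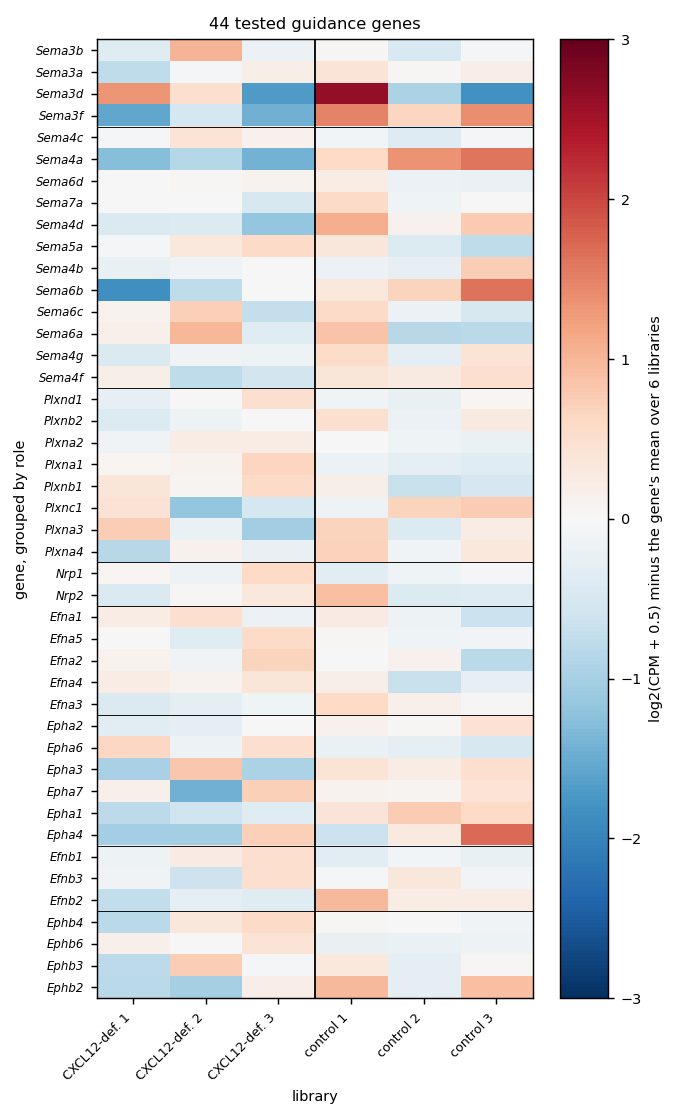
Each tested member in each library, as log2(CPM + 0.5) minus the gene's mean over the 6 libraries (red above, blue below that mean), with CXCL12-deficient libraries left of the black line. Sema4a is blue in all 3 CXCL12-deficient libraries and red in all 3 controls, while rows such as Sema3d, Nrp2 and Sema6a have their reddest cell among controls in control replicate 1.

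Other guidance genes and the intracellular partners of these receptors gave few calls. Among 6 tested Slit and Robo genes 0 passed in edgeR, in DESeq2 or in limma-voom, and 1 had an unadjusted p below 0.05. Among 12 tested genes of netrins, repulsive guidance molecules, FLRT proteins and their receptors, 0 were called by edgeR or limma-voom and 1 was higher by DESeq2, with 2 at an unadjusted p below 0.05. Of 27 tested co-receptors and transducers of semaphorins, 3 fell and 0 rose by edgeR (11.1%, beside 4.57% of all tested genes). DESeq2 called 5 lower and 1 higher, limma-voom called 2 lower and 0 higher, and 9 had an unadjusted p below 0.05. The 3 that edgeR called lower were Tyrobp, Fes and Flt1, a VEGF receptor. Tyrobp is the adaptor that couples to Plxna1 through Trem2 in dendritic cells and osteoclasts, and Fes is a kinase that acts with plexin-A1. Tyrobp had 40.7, 26.8 and 17.98 CPM in CXCL12-deficient libraries, against 91.3, 131 and 104 CPM in controls (log2 fold change -1.93 ± 0.29, SE; adjusted p = 0.011, edgeR). Fes had 50.2, 68.3 and 52.6 CPM in CXCL12-deficient libraries, against 97.3, 97.6 and 93.1 CPM in controls (-0.75 ± 0.16, SE; adjusted p = 0.038, edgeR). Flt1 had 0.96, 1.53 and 0.80 CPM in CXCL12-deficient libraries, against 5.64, 3.54 and 5.91 CPM in controls (-2.19 ± 0.49, SE; adjusted p = 0.041, edgeR). Tyrobp and Fes are also expressed by myeloid cells and Flt1 by endothelial cells, whose markers were lower in the same libraries. Without 1 library Tyrobp lost its call in 1 of the 6 refits (without control replicate 3, adjusted p = 0.053), and Fes and Flt1 each lost theirs in 5, all but the one without CXCL12-deficient replicate 2. Of 26 tested Eph and ephrin transducers, 1 rose and 0 fell by edgeR (3.85%): Grip1, a PDZ protein that binds ephrin-B tails. DESeq2 called 3 of these genes lower and 1 higher, limma-voom 1 lower and 0 higher, and 5 had an unadjusted p below 0.05. Grip1 had 17, 28 and 88 reads in CXCL12-deficient libraries, against 0, 2 and 2 reads in controls (adjusted p = 0.048, edgeR), so its fold change rests on 4 control reads. Its call was lost in each of the 6 refits without a library (adjusted p from 0.051 to 0.18).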

How the data were processed

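RNA sequencing of 3 CXCL12-deficient and 3 control libraries was analysed from the deposited read counts, whole numbers per gene that the authors left unnormalized, as their values show. Regularized log2 values that the authors deposited served as an alternative, and a deposited table of depth-normalized values was not used. The submitters' processing notes list TopHat2 2.0.13 and Bowtie2 2.2.1 with the build mm10, and also HTSeq, DESeq2, Cufflinks, Cuffdiff and FastQC, without roles. Annotation, strand setting and the handling of shared reads are not stated there, so reads of overlapping or antisense genes cannot be told apart. RNA was amplified with a SMARTer kit, per the series' design text.

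The 17131 entries gave 17128 genes once the 4 Cxcl12 exons were summed. Genes were filtered with filterByExpr (minimum count 10, minimum total 15) and scaled by TMM (factors 0.955 to 1.05). The robust quasi-likelihood F-test (edgeR 4.0.16, R 4.3.3) ran over all 13926 genes left, with Benjamini-Hochberg adjustment over them and a threshold of 0.05. Standard errors and 95% intervals came from the F statistic and its degrees of freedom. Exon lengths and gene positions were taken from GENCODE M21 (GRCm38), matched by symbol for all 52 members, and may differ from the authors' annotation. Promoters are RefSeq sequences.

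Named genes are the called members, the 3 highest per kilobase in each role, and called genes of 4 related pathway lists with a mean of at least 1 CPM; further members are named to account for each one. Of 192 listed genes 190 were matched, 2 of them under an older symbol. Members and lists were chosen with earlier results of these data known. The steps were also run on simulated counts, and the result of that run is not given here. The counts of calls, the members' median and the log2 fold changes of 34 genes (the named genes, Cxcl12, Ptprc, Sema3f, Sema6b, Plxna1 and Epha1) were recomputed with other scaling (DESeq2 size factors or upper quartiles), with 2 other filters, without robust shrinkage, with DESeq2 1.42.0, with limma-voom (limma 3.58.1), with limma on the deposited log2 values, at a threshold of 0.01, and without each library in turn; for Ptprc and the pathway genes this was chosen after seeing the data. Ratios and marker sums were not recomputed. At these totals 1 read equals 0.0357 to 0.0472 CPM, and limits from reads cover counting error only. The value of 1 listed marker gene is not reported here.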

Additional observations from a re-analysis of the deposited data

How the results depend on the processing

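No paired analysis was possible because the labels give no replicate numbers that link libraries. The count of 2 called members became 1, Sema4a, with limma-voom, at an adjusted p below 0.01 and in 5 of the 6 refits without a library (range 1 to 2). Without CXCL12-deficient replicate 2 the 2 were Sema4a and Sema3f, and DESeq2 gave 3, adding Sema3f. The 637 genes called over the whole table became 1291 with DESeq2 and 80 at an adjusted p below 0.01. Refits without a library gave 74 (without control replicate 3) to 577, and 160 without control replicate 2. The 4 called genes of the pathway lists became 11 with DESeq2, 0 at an adjusted p below 0.01, and 0 (without control replicate 3) to 3 in refits without a library, with 1 when control replicate 2 was left out and 2 when either control replicate 1 or CXCL12-deficient replicate 3 was. The members' median log2 fold change of -0.17 was 0.058 with a filter of 1 CPM in 3 libraries, which left 38 members. It ran from -0.28 to 0.12 without a library and was above 0 only without control replicate 1.

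Sema4a kept its call under all 14 alternatives with a refit, with log2 fold changes from -2.70 to -1.60. Of 474 recomputed log2 fold changes of 34 genes, 430 kept their sign and side of the threshold, 28 lost the call (7 for Sema4d, 9 for Grip1, 6 for Flt1, 5 for Fes and 1 for Tyrobp) and 2 (both Sema3f) gained it. The other 14 changed sign, none of them called. Most of the 34 genes were not called in the main fit, and for them the same side means uncalled. Of the genes called there, Cxcl12 kept its call in all 13 alternatives, and Sema4a and Ptprc in all 14. Tyrobp kept it in 13 of 14, Fes in 9 of 14, Flt1 in 8 of 14, Sema4d in 7 of 14 and Grip1 in 4 of 13. Without a library, log2 fold changes ran from -0.12 to 0.37 for Efna5, -0.48 to 0.16 for Efnb3, -0.45 to 0.36 for Ephb3, -0.097 to 0.49 for Ephb4, -0.40 to 0.39 for Nrp2, -0.027 to 0.35 for Plxnd1, -0.14 to 0.75 for Sema3b and -1.81 to 3.19 for Sema3d. The sign turned without control replicate 1 for Nrp2 and Sema3d, without control replicate 2 for Efnb3 and Ephb3, without CXCL12-deficient replicate 1 for Nrp2 (0.0016), without replicate 2 of that group for Efnb3, Ephb3 and Sema3b, and without CXCL12-deficient replicate 3 for Efna5, Ephb4 and Plxnd1. With limma-voom Ephb3 was at -0.094 and Sema3d at 0.52, and on the deposited log2 values Ephb3 was at -0.024. The cause was not tested. Depth limits the 13 members under 0.1 CPM per kilobase, and 8 of 52 did not pass the count filter.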
